A study of Sus scrofa with 6 samples.

Results

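The left atria of 2 pigs with mitral regurgitation that received valsartan (MRV) were compared, gene by gene, with those of 2 pigs with the same lesion and no drug (MR), so the comparison used 4 of the 6 arrays of the study. These 4 arrays are all those titled MRV or MR. The remaining 2 arrays, from normal control pigs (NC), entered the estimate of the spread and serve as a reference level. All animals were male Lanyu miniature pigs aged 18 months. Regurgitation was produced in the MR and MRV pigs by making a hole of 2.8 mm in the posterior leaflet of the valve, and both groups were killed 12 months after that operation. MRV pigs took valsartan at 3.43 mg/kg/day, starting a week before the operation. No operation is recorded for NC pigs, and no drug-treated group without regurgitation is among the samples, so an effect of valsartan on an atrium without regurgitation was not measured. Each animal gave 1 array of a porcine Affymetrix expression chip. Values are fluorescence intensities per probe set in arbitrary units on a linear scale, and differences are given as log2(intensity + 16) of MRV minus MR, with the moderated standard error (SE) of limma. The offset of 16 makes differences of dim genes look smaller than they were.

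Valsartan blocks the type 1 angiotensin II receptor. Angiotensin II is cut from angiotensinogen by renin and angiotensin converting enzyme, and through that receptor it constricts vessels, drives aldosterone release and acts on heart muscle cells and fibroblasts. A leaking mitral valve loads the left atrium with volume and stretches its wall. Stretched atrial muscle is known to release natriuretic peptides, to express Z-disc and LIM proteins that couple tension to signalling, and to lay down matrix over time.

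The arrays looked like atrial muscle and alike in overall brightness, with differences between groups in some RNA controls. Of the 20 listed atrial muscle genes, 12 were tested, and their summed intensity lay between 110900 and 117800 in MR and between 117500 and 118700 in MRV. The atrial light chain MYL4 read 21356 and 21236 in MR against 21630.5 and 21034 in MRV. The 28S ribosomal RNA control read 341 and 559 on the MRV arrays against 187 and 279.9 on the MR arrays, with no overlap, and 117 on NC1 and 468 on NC2. The ratio of the 3′ to the 5′ actin control, which is higher in more degraded RNA, came to 2.30 and 1.87 on the MRV arrays against 1.44 and 1.70 on the MR arrays, also with MRV above. For GAPDH the matching ratio was 1.53 to 1.59 on the 6 arrays. The 3′ actin control itself read lower in MRV, at 7859 and 10976.5 against 15543 and 14861 in MR. Of the 135 named genes that differed by a log2 of 0.3 or more in either direction, 22 came out over 1.5 times smaller or with the other sign when the 28S control was a covariate of the fit, and 49 when the actin ratio was. Such values, with 1 or both controls, are given below for each described gene with a log2 difference of at least 0.3 in size that came out over 2 times smaller or with the other sign, and for some that shifted less. Both controls separated MRV from MR without overlap, so a fit with either can also absorb part of a treatment difference. Values adjusted in this way are therefore not corrected ones, and RNA quality and treatment cannot be told apart here. In whole tissue, fewer cells of a type and less RNA per cell cannot be told apart.

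No probe set differed between MRV and MR after adjustment for multiple tests. With limma, 0 of 14400 tested probe sets had an adjusted p under 0.05 (0% called), and the smallest adjusted p was 0.317. At an unadjusted p under 0.05 there were 1048 probe sets (7.28%), of which 322 were higher (2.24%) and 726 lower in MRV (5.04%). Everything below is therefore a description of these 4 atria: "lower" and "higher" compare the arrays, and "without overlap" means that both MRV arrays lay on the same side of both MR arrays. Of all tested probe sets, 3403 read lower (23.6%) and 2707 higher (18.8%) in MRV without overlap. Among the 5408 genes with a symbol of their own, 1552 read lower in MRV without overlap (28.7%) and 810 higher (15%), and the median log2 difference was -0.031. At an unadjusted p under 0.05 there were 426 of these genes (7.88%), 339 lower (6.27%) and 87 higher (1.61%). Differences of at least 2-fold without overlap were rarer, with 80 probe sets lower (0.556%) and 79 higher (0.549%). The higher count was 171 without MR2 and the lower count 125 without MRV2, while the count at an unadjusted p under 0.05 was 611 without MR1 and 599 without MRV1. At gene level the 2-fold counts were 38 genes lower (0.703%) and 18 higher (0.333%), since 85 of the 159 probe sets carried no single symbol. The gene counts moved with single arrays, to 42 higher and 47 lower without MR2, 32 higher and 37 lower without MRV1, and 27 higher and 58 lower without MRV2.

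**Figure D1:**
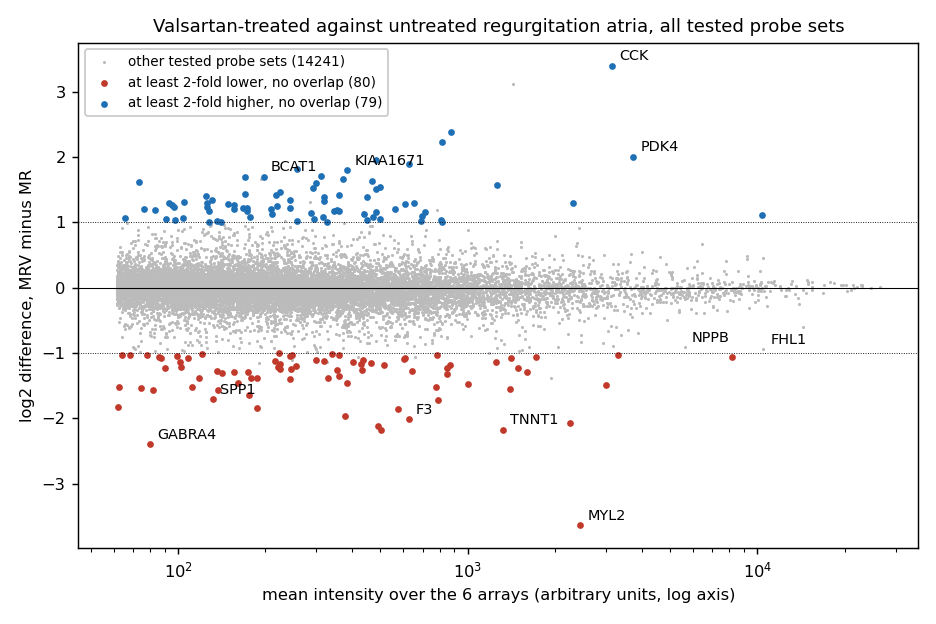
Log2 difference of MRV minus MR (vertical axis) against mean intensity over the 6 arrays (horizontal log axis, arbitrary units) for the 14400 tested probe sets. The 80 red and 79 blue points are at least 2-fold lower or higher in MRV without overlap; dotted lines mark log2 differences of 1 and -1, and gene names stand to the upper right of their points.

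Among the genes at least 2-fold lower in valsartan-treated atria, those with the smallest p included the genes of tissue factor, a GABA receptor subunit, a pleckstrin family protein and the hormone stanniocalcin. F3 encodes tissue factor, the cell-surface protein that starts blood coagulation. It read 1099 and 882 in MR, 189 and 284 in MRV and 578 and 723 in NC (log2 difference -2.01, SE 0.23, limma adjusted p = 0.317). The MRV atria were the lowest of the 3 groups and the MR atria the highest, with no overlap between any groups, and the difference was -2.18 with the 28S control and -1.70 with an actin ratio term. GABRA4, a GABA receptor subunit, read 137 and 241 in MR, 29.9 and 14.9 in MRV and 19.3 and 38.8 in NC (log2 difference -2.40, SE 0.35, limma adjusted p = 0.317). PLEK2, a pleckstrin family protein of the actin cytoskeleton, also read highest in MR, at 191 and 118 in MR, 52.3 and 32.2 in MRV and 25.8 and 27.1 in NC (log2 difference -1.53, SE 0.26, limma adjusted p = 0.386). For both genes the MR arrays stood above all 4 others. Those 4 arrays read below the filter's mean intensity of 61.4, so both genes passed it only through MR. The position of MR was thus partly fixed by the choice of genes and tests nothing.

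A further set of lower genes read below the NC arrays as well. DDAH1 clears asymmetric dimethylarginine, an inhibitor of nitric oxide synthase, and read 299 and 259 in MR, 97.5 and 96.2 in MRV and 147 and 226 in NC (log2 difference -1.38, SE 0.20, limma adjusted p = 0.317). STC1, a secreted glycoprotein hormone, read 243 and 373 in MR, 126 and 116 in MRV and 236 and 229.8 in NC (log2 difference -1.21, SE 0.20, limma adjusted p = 0.386). IER3, an early response gene that modulates cell survival, read 283 and 279 in MR, 106 and 135 in MRV and 293 and 205 in NC (log2 difference -1.13, SE 0.19, limma adjusted p = 0.386). In these 3 genes both MRV arrays were the lowest of all 6. The same held for CITED1, a transcriptional co-regulator, at 495 and 549.5 in MR, 133 and 244 in MRV and 394 and 476 in NC (log2 difference -1.45, SE 0.27, limma adjusted p = 0.41). MEIS1, a homeobox transcription factor of heart development, read 402 and 493 in MR against 219 and 116 in MRV, and its other probe set was lower by a log2 difference of -0.62. SPP1 encodes osteopontin, a matrix protein and cytokine. It read 248 and 138 in MR against 32.2 and 63.0 in MRV, a log2 difference of -1.71 that was -0.58 after allowing for the actin ratio. The microtubule protein MAP1A read 789 and 766 in MR against 390.0 and 324 in MRV, but another of its probe sets differed by 0.01. CDO1, which oxidizes cysteine, read 416 and 419 in MR against 200.3 and 173 in MRV. HOMER2, a scaffold protein of calcium signalling, read 1571 and 1964 in MR against 618 and 1005 in MRV, and its other probe sets differed by -1.25 and 0.04. PHEROC was lower by a log2 difference of -1.02, at dim levels of 33.0 and 48.2 in MRV, and it too passed the intensity filter only through MR.

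The genes at least 2-fold higher included the metabolic genes BCAT1 and PDK4 and the Kruppel-like factors KLF10 and KLF11. Among those at least 2-fold higher, the smallest p was that of KIAA1671, which read 231 and 171 in MR, 688 and 780.5 in MRV and 176 and 257 in NC (log2 difference 1.80, SE 0.22, limma adjusted p = 0.317). BCAT1, the cytosolic enzyme that starts the breakdown of branched-chain amino acids, read 137 and 62.9 in MR, 387 and 299 in MRV and 187 and 112 in NC (log2 difference 1.70, SE 0.37, limma adjusted p = 0.5), and its other probe set was higher by 0.84. Both genes read higher in MRV than on any other array. CAMK1D, a calcium/calmodulin-dependent kinase, read 175 and 106 in MR, 552 and 366 in MRV and 332 and 261 in NC (log2 difference 1.61, SE 0.29, limma adjusted p = 0.394).

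The Kruppel-like factor KLF11 read 95.6 and 72.2 in MR, 187 and 178 in MRV and 136 and 174 in NC (log2 difference 1.0, SE 0.17, limma adjusted p = 0.386). KLF10, a related factor induced by TGF-beta, read 278 and 321 in MR, 501 and 816 in MRV and 663 and 413 in NC (log2 difference 1.06, SE 0.30, limma adjusted p = 0.583). For both factors the MR arrays were the lowest of the 6 and the MRV arrays lay above the lower NC array. AKR1CL1, an aldo-keto reductase, also read lowest in MR, at 55.3 and 34.5, with 124 and 93.5 in MRV and 134 and 102 in NC. Its other probe sets were higher in MRV by 1.18 and 0.33. FAM216B read 325 and 239 in MR against 637 and 777 in MRV, and NRSN1, a neuronal vesicle protein, read 208 and 83.9 against 369 and 357.

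Other higher genes varied widely within a group, which their SE reflects. CCK encodes cholecystokinin, a peptide hormone that the heart also makes. It read 1478 and 134 in MR, 4605 and 5371 in MRV and 6339 and 912 in NC, and its log2 difference of 3.40 had an SE of 1.28. Without an array that difference ranged from 1.74 to 5.06. NR4A3, an orphan nuclear receptor, read 190.4 and 599.8 in MR against 648 and 949 in MRV, and FGGY, a carbohydrate kinase, read 952 and 274 against 1888 and 1304. The splicing factor SF1 read 181 and 379 in MR, 552 and 646 in MRV and 240.5 and 628 in NC, so it was low on MR1 and NC1, the arrays with the lowest 28S control, and its difference of 1.14 was 0.18 adjusted for the actin ratio. LOC100523870 was higher mainly through MRV1, with 1128 and 224 in MRV, and its sign turned with an actin ratio term, to -0.11.

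**Figure D2:**
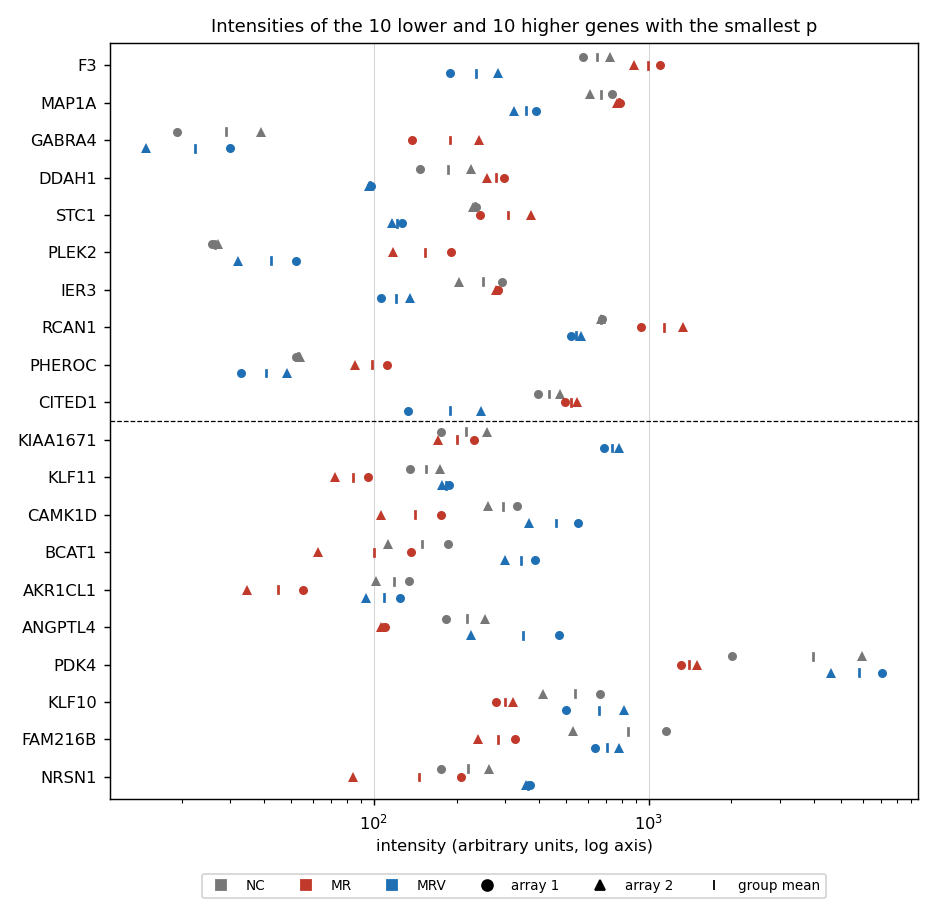
Intensity (horizontal log axis, arbitrary units) on each of the 6 arrays for the 10 lower genes (above the dashed line) and the 10 higher genes (below it) with the smallest limma p among those at least 2-fold apart without overlap. Circles and triangles are arrays 1 and 2 of a group and short bars the group means; F3 reads 189 and 284 in MRV against 1099 and 882 in MR.

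Of the lists with 9 or more tested genes, those of nerve and glia (-0.68), of the stretch response (-0.42), of the Z-disc (-0.27) and of endothelin and vessel tone (-0.27) had the lowest median log2 differences. With a stricter intensity filter the nerve and glia median was -0.34, while that of the stretch response stayed -0.42. Lists were written for 36 pathways and 20 cell types, and no list holds a gene past the adjusted threshold. Their shares without overlap are to be read against 28.7% lower and 15% higher over all genes.

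**Figure D3:**
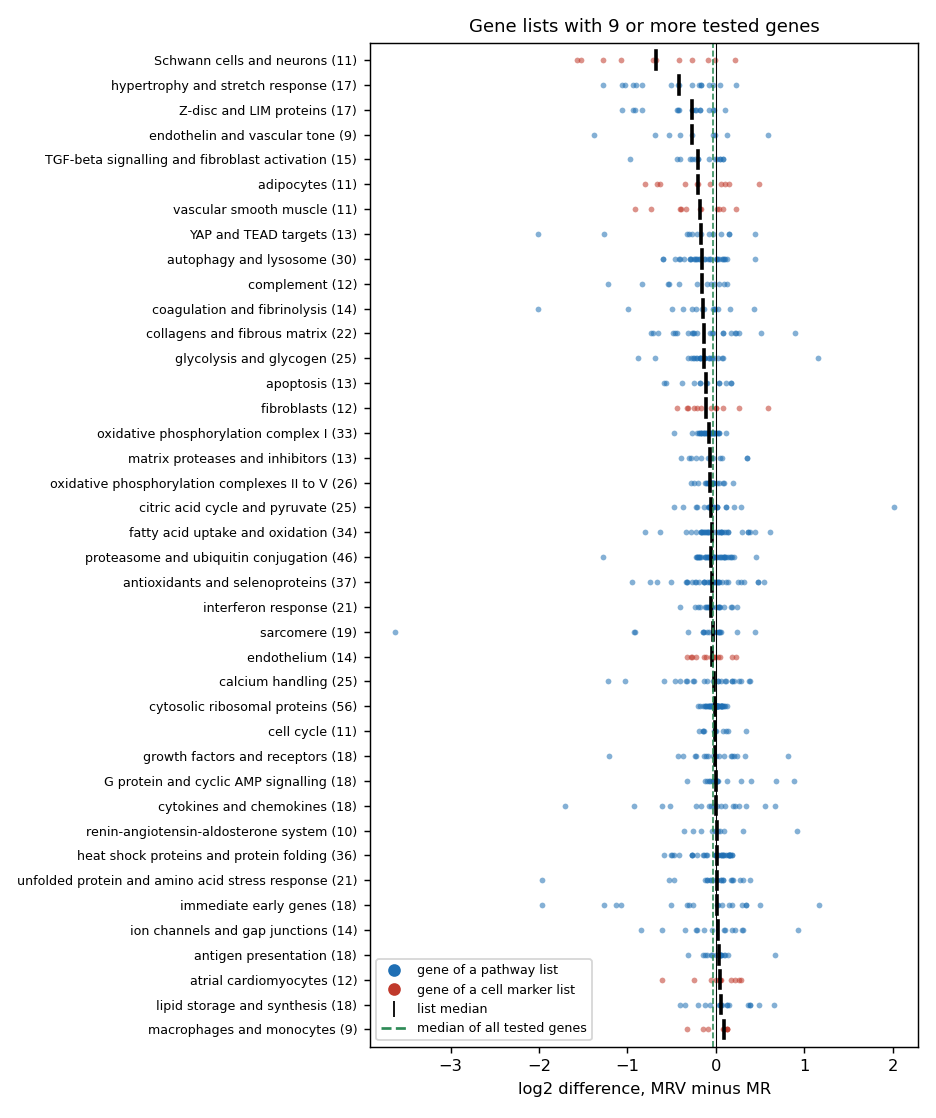
Log2 difference of MRV minus MR for each tested gene of the 40 lists with 9 or more tested genes, with the number tested in brackets. Black bars are list medians, from -0.68 for Schwann cells and neurons to 0.09 for macrophages and monocytes; the dashed green line is the median of all 5408 genes, -0.031.

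The hypertrophy and stretch list read mostly lower under valsartan, with 12 of its 17 tested genes lower without overlap and 1 higher, and a median log2 difference of -0.42. NPPB encodes B-type natriuretic peptide, which stretched muscle secretes and which lowers blood volume. It read 8081 and 8253 in MR, 4076 and 4644 in MRV and 4509.6 and 4095 in NC (log2 difference -0.91, SE 0.12, limma adjusted p = 0.317). The MRV arrays lay around the NC arrays, and the MR arrays stood apart from both. NPPA, the atrial natriuretic peptide, was very bright on every array, at 19049 and 19832 in MR against 20169.7 and 20039 in MRV. Its log2 difference was 0.05, and -0.02 after quantile normalization, so no direction can be given.

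FHL1, a LIM-domain protein that senses strain at the sarcomere, read 13581 and 13183 in MR, 6866 and 7073 in MRV and 9944 and 12171 in NC (log2 difference -0.94, SE 0.13, limma adjusted p = 0.317). Both MRV arrays were the lowest of the 6. RCAN1, an inhibitor of the phosphatase calcineurin that is itself induced by calcineurin signalling, read 941 and 1335 in MR, 521 and 565 in MRV and 674 and 669 in NC (log2 difference -1.03, SE 0.18, limma adjusted p = 0.386), and its other probe set was lower by -0.97. UCHL1, a ubiquitin hydrolase found in neurons and in stressed muscle, read 2277 and 1998 in MR, 633 and 1186 in MRV and 1122 and 2384 in NC. XIRP2, which binds actin at the intercalated disc, read 3218 and 2399.5 in MR against 1499 and 1175 in MRV but only 467 on NC1, which widened its SE to 0.54. The exceptions to the downward pattern were FBXO32, the atrophy ubiquitin ligase atrogin, which overlapped with 3697 and 4119 in MR against 3952 and 5258 in MRV, and NPPA. The list median stayed between -0.46 and -0.35 without any of the 6 arrays in turn.

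The Z-disc and LIM proteins, which anchor the thin filaments and signal tension, include 8 genes of the preceding list. Of 17 tested genes, 12 read lower in MRV without overlap and 0 higher, and the median was -0.27. MYOT, the Z-disc protein myotilin, read 2856 and 3250.5 in MR, 1848 and 1572 in MRV and 2300.3 and 2933 in NC (log2 difference -0.83, SE 0.17, limma adjusted p = 0.439). PDLIM1, a PDZ and LIM protein that binds alpha-actinin, read 1691 and 1857 in MR, 785 and 1108 in MRV and 913 and 1195 in NC (log2 difference -0.91, SE 0.21, limma adjusted p = 0.502). LMCD1, a LIM protein that enhances calcineurin signalling, read 401 and 441 in MR against 299 and 313 in MRV. In these 3 genes no MRV array reached an MR array.

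The sarcomere's filament proteins, by contrast with the Z-disc list, had a median of -0.04, with 6 of 19 genes lower and 4 higher without overlap. The largest differences were those of MYL2, NEB and TPM2, and the giant thin-filament protein gene NEB, at -0.92, overlapped between the groups. MYL2, the ventricular regulatory light chain, read 10693 and 2318 in MR, 152 and 954 in MRV and 203 and 325 in NC (log2 difference -3.63, SE 1.01, limma adjusted p = 0.583). Its level varied more than 4-fold within MR and 6-fold within MRV, and its log2 difference was -1.45 after allowing for the actin ratio. TNNT1, slow skeletal troponin T, which stands in the skeletal muscle list and not in that of the sarcomere, read 2421 and 2724 in MR, 323 and 957 in MRV and 497 and 996 in NC (log2 difference -2.17, SE 0.54, limma adjusted p = 0.535). The other ventricular markers differed less: the ventricular light chain MYL3 read 10583 and 10329 in MR against 8476 and 8316 in MRV, and HEY2 differed by -0.02. Of 7 ventricular markers tested, 2 were lower without overlap and 0 higher, and their summed intensity was 57480 and 49370 in MR and 45770 and 44300 in MRV. That sum includes MYL2, whose reading of 10693 on MR1 was its highest. TPM2, a tropomyosin of slow and smooth muscle, read 2916 and 2198 in MR against 1412 and 1272 in MRV (log2 difference -0.91, SE 0.20, limma adjusted p = 0.502), with other probe sets at -0.91, -0.86 and 0.01. MYOM2, which links myosin filaments at the M-band, was higher, at 7187 and 8365 in MR against 10451 and 10663 in MRV (log2 difference 0.44, SE 0.12, limma adjusted p = 0.554). MYH7, the slow myosin heavy chain, differed by -0.03.

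Calcium handling genes did not share a direction. Of 25 tested, 9 read lower and 3 higher without overlap, with a median of -0.03 that turned to 0.01 after quantile normalization. S100A1, a calcium sensor that enhances contraction, read 2812 and 1947 in MR, 725 and 1360.5 in MRV and 812 and 1277 in NC (log2 difference -1.22, SE 0.37, limma adjusted p = 0.603), with MR above all other arrays and a difference of -0.76 adjusted for the actin ratio. The calcium release channel RYR2 read 4786 and 3343 in MR against 3124 and 2900.1 in MRV, and CASQ2, the calcium-storing protein beside it, read 2716 and 1688 against 1474 and 1376. Both channel-stabilizing immunophilins were lower without overlap, FKBP1A by -0.33 and FKBP1B by -0.46. Adjusted for the actin ratio, RYR2, CASQ2, FKBP1A and FKBP1B differed by only -0.08, -0.01, -0.04 and -0.11. The calcium pump ATP2A2 and its inhibitor PLN overlapped between the groups, with log2 differences of 0.06 and 0.03. Sarcolipin (SLN), the atrial inhibitor of that pump, read 5369 and 9876 in MR against 8949 and 8529.8 in MRV and overlapped as well, with a difference of 0.26 that turned to -0.28 with an actin ratio term.

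Ion channel and connexin genes showed no common direction, with 2 of 14 lower and 3 higher without overlap and a median of 0.02. KCNE1, the accessory subunit of the slow delayed rectifier, read 653 and 726 in MR, 278 and 505 in MRV and 264 and 318 in NC (log2 difference -0.85, SE 0.27, limma adjusted p = 0.626). KCNQ1, the pore subunit with which it assembles, was higher, at 113 and 83.9 in MR against 124 and 125 in MRV. Of the atrial connexins, GJA5 (connexin 40) read 320.5 and 584 in MR against 268 and 291 in MRV, while GJA1 (connexin 43) read 4826 and 5434 against 6939.5 and 5738. CACNA2D1, a calcium channel subunit, was higher by 0.93, but it read 61.5 and 337 in NC and was lowest on the arrays with the lowest 28S control. Its sign turned with either control as a covariate, to -0.06 and -0.72. In the G protein and cyclic AMP list, 5 of 18 genes were higher and 3 lower without overlap. Among them the protein kinase A catalytic subunit PRKACB read 709 and 673 in MR against 1308 and 1259 in MRV (log2 difference 0.88, SE 0.29, limma adjusted p = 0.629), and the phosphodiesterase PDE3A read 216 and 251 against 327 and 447.

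The renin-angiotensin genes themselves had no common direction, with a higher AGT among them. Of 22 listed genes only 10 were tested. Among these, 2 read lower and 3 higher in MRV without overlap, and the median was 0.01. AGTR1, the receptor that valsartan blocks, read 352 and 518 in MR, 469 and 414 in MRV and 599 and 588 in NC (log2 difference 0.04, SE 0.19, limma adjusted p = 0.97), so the treated and untreated groups overlapped, and its sign turned with an actin ratio term, to -0.29. ACE, the converting enzyme, read 129 and 111 in MR against 117 and 122 in MRV. AGT, the precursor angiotensinogen, was higher, at 1887 and 1097 in MR against 2434 and 3085 in MRV, but NC ranged from 1803 to 4209 (log2 difference 0.92, SE 0.45, limma adjusted p = 0.727). Its log2 difference was 1.43 with the 28S control and 2.05 with an actin ratio term. CTSD, cathepsin D, which can cleave angiotensinogen, read 689.6 and 746 in MR against 490.4 and 626 in MRV. ATP6AP2, the prorenin receptor, was lower by -0.16 and AGTRAP, which promotes internalization of the type 1 receptor, higher by 0.09.

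In the list of endothelin and other regulators of vessel tone, 5 of 9 tested genes read lower and 1 higher without overlap, with a median of -0.27. That median was -0.12 with the 28S control and -0.13 with an actin ratio term, -0.09 without MR2 and -0.12 without MRV1, and -0.45 without MR1 and -0.42 without MRV2. EDN1, the precursor of the vasoconstrictor endothelin 1, read 138 and 121 in MR, 71.3 and 99.6 in MRV and 91.5 and 78.7 in NC (log2 difference -0.53, SE 0.17, limma adjusted p = 0.626). Adjusted for the actin ratio, its log2 difference was -0.13. The endothelin A receptor EDNRA had the opposite sign, at 459 and 386 in MR, 702 and 588 in MRV and 672 and 639.8 in NC (log2 difference 0.59, SE 0.14, limma adjusted p = 0.522). The other endothelin receptor, EDNRB, overlapped, with a difference of -0.01. For the ligand the MR arrays were the highest of the 6, and for the receptor they were the lowest. GUCY1B3, the beta subunit of the nitric oxide receptor guanylate cyclase, read 540.1 and 446 in MR against 341 and 262 in MRV, and the vasodilator peptide gene ADM read 168 and 186 against 119 and 141, a difference of -0.41 that was -0.19 after allowing for the actin ratio.

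In the coagulation and fibrinolysis list, 6 of 14 genes read lower and 1 higher without overlap, with a median of -0.15. The median was -0.01 when adjusted for the actin ratio, -0.03 without MR2 and -0.26 without MR1. Besides F3, SERPINB2, which inhibits plasminogen activators, read 1611 and 1465 in MR, 753 and 768 in MRV and 1095 and 1395 in NC (log2 difference -1.0, SE 0.15, limma adjusted p = 0.317). Both MRV arrays lay below both NC arrays. VWF, the endothelial von Willebrand factor, read 784 and 921 in MR against 711 and 696 in MRV, but its other probe set differed by 0.12. The thrombin receptor F2R was the higher gene, mainly through MRV2, at 641 and 1039.8 in MRV against 609 and 593 in MR. F3 and CYR61 are also known targets of YAP and TEAD, the transcriptional effectors of mechanical tension. CYR61, a matricellular protein, read 435 and 269 in MR, 154 and 116 in MRV and 864 and 285 in NC, and its difference of -1.26 was -0.54 and -0.44 with the 28S control and the actin ratio as covariates. Of the 13 such targets tested, 6 were lower and 1 higher without overlap, with a median of -0.16 that was -0.27 with the 28S control and -0.31 with an actin ratio term, and the higher gene was the YAP-binding protein AMOTL1, at 539.6 and 561 in MR against 719 and 786 in MRV (log2 difference 0.44, SE 0.11, limma adjusted p = 0.537).

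Immediate early genes, transcription factors and regulators switched on within minutes of a stimulus, did not share a direction: 6 of 18 were lower and 3 higher without overlap, and the median was 0.02. ATF3, a stress-induced repressor, read 265 and 357 in MR, 89.1 and 49.0 in MRV and 1099.5 and 409 in NC (log2 difference -1.97, SE 0.48, limma adjusted p = 0.529). Both treated atria were below every other array. IER5 read 868 and 444 in MR against 324 and 253 in MRV, and the growth regulator MYC read 139.7 and 162 against 120.5 and 85.1. The difference of ATF3 was -1.38 with the 28S control as a covariate, and that of IER5 shrank from -1.08 to -0.12 with the actin ratio. The nuclear receptors of the NR4A family read higher, NR4A3 by 1.17 and NR4A2 by 0.29, and the classical members EGR1, JUN and FOS overlapped between the groups, with log2 differences of 0.01, 0.15 and 0.34. That of FOS turned to -1.11 with an actin ratio term.

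ATF3 belongs also to the amino acid and unfolded protein response, where 4 of 21 genes read lower and 3 higher without overlap and the median was 0.01. ATF4, the main transcription factor of that response, read 2561 and 2305 in MR, 1776 and 1578 in MRV and 1912 and 2295 in NC (log2 difference -0.53, SE 0.14, limma adjusted p = 0.554), lowest in MRV. DNAJB9, an endoplasmic reticulum co-chaperone, read 459 and 358 in MR against 302 and 274 in MRV. ASNS, asparagine synthetase, a target of ATF4, read 193 and 173 in MR against 214 and 237 in MRV, far under the 779 and 852 of NC. Its difference between MRV and MR was 0.28 (SE 0.12, limma adjusted p = 0.702).

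Among genes of fuel choice, PDK4, ANGPTL4, CPT1A, CPT1B and OXCT1 read higher in treated atria without overlap, while the list of fatty acid uptake and oxidation as a whole had no common direction. The lists of glycolysis and of the respiratory complexes had medians slightly below 0. PDK4 switches off pyruvate dehydrogenase and so spares glucose. It read 1311 and 1501 in MR, 7036 and 4614 in MRV and 2003 and 5943 in NC (log2 difference 2.01, SE 0.50, limma adjusted p = 0.536), and its other probe set was higher by 2.38. ANGPTL4, a secreted inhibitor of lipoprotein lipase that fatty acids induce, read 109.8 and 107 in MR, 473 and 225 in MRV and 183 and 254 in NC (log2 difference 1.47, SE 0.34, limma adjusted p = 0.502). In both genes the MR arrays were the lowest of the 6. After allowing for the actin ratio, their log2 differences were 0.83 and 0.68.

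CPT1B, the muscle enzyme that carries fatty acids into mitochondria, read 938 and 885 in MR, 1183 and 1164 in MRV and 1222 and 1354 in NC (log2 difference 0.36, SE 0.11, limma adjusted p = 0.601). Its liver-type relative CPT1A read 264 and 298 in MR against 426 and 349 in MRV, and OXCT1, which activates ketone bodies, read 730.2 and 946 against 1172 and 1392. Each of these had both treated arrays above both untreated ones, although the difference of OXCT1 was 0.18 and that of CPT1B 0.31 after allowing for the actin ratio. Another OXCT1 probe set differed by only 0.07. The co-activator PPARGC1A, which drives mitochondrial genes, read 1261 and 1633 in MR against 1691 and 2079 in MRV, a difference of 0.38 that was 0.09 with the 28S control. The beta-oxidation enzymes did not follow: over the 34 genes of fatty acid uptake and oxidation, 10 read lower and 7 higher without overlap and the median was -0.05. The cytosolic carrier FABP3 was among the lower ones, at 6156 and 5008 in MR against 3913 and 4915 in MRV, with a difference of -0.34 that was -0.08 adjusted for the actin ratio. Among lipid storage genes, 4 of 18 were higher and 2 lower without overlap. The phosphatidate phosphatase LPIN1 read 686 and 618 in MR against 767 and 958 in MRV, and the lipid droplet gene PLIN2 was higher by 0.38, or -0.03 with an actin ratio term.

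In glycolysis and glycogen metabolism, 11 of 25 tested genes read lower and 1 higher without overlap, with a median of -0.14. STBD1, which tethers glycogen to membranes, read 619.8 and 646 in MR, 297 and 381 in MRV and 633 and 583 in NC (log2 difference -0.88, SE 0.14, limma adjusted p = 0.386), and its other probe set was lower by -0.51. PFKM, the muscle phosphofructokinase that commits glucose to glycolysis, read 5271 and 4164 in MR, 2414 and 3464 in MRV and 3508 and 4339.9 in NC (log2 difference -0.69, SE 0.22, limma adjusted p = 0.626). In both genes the MRV arrays were the lowest of the 6. The list median was -0.05 with the 28S control, -0.01 with an actin ratio term and -0.08 without MR1. The 1 gene higher without overlap was GAPDH, by 0.08, and PGAM2 had a larger difference only through MRV1, at 1407 and 153 in MRV against 277 and 149 in MR, and its difference of 1.16 was -0.06 adjusted for the actin ratio.

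Subunits of respiratory complex I read lower in small steps, with a log2 difference below 0 in 28 of 33. Without overlap 16 were lower and 2 higher. Their median was only -0.08, where that of all genes was -0.031. After quantile normalization the complex I median was -0.04 and that of all genes -0.018. NDUFA7 had the largest difference, at 2156 and 2664 in MR, 1671 and 1778 in MRV and 2053 and 2384 in NC (log2 difference -0.47, SE 0.15, limma adjusted p = 0.62). For complexes II to V, 12 of 26 were lower and 2 higher without overlap, with a median of -0.06. UQCR10 of complex III read 7535 and 7863 in MR against 6175 and 6527 in MRV, and ATP5J of the ATP synthase was higher, at 1687 and 1621 against 1979.5 and 1799.8. In the citric acid cycle, 9 of 25 genes were lower and 3 higher without overlap. IDH3A, a subunit of its regulated isocitrate dehydrogenase, read 3194 and 2652 in MR, 2036 and 2163 in MRV and 2802 and 2719 in NC (log2 difference -0.47, SE 0.13, limma adjusted p = 0.569), again lowest in the treated atria.

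**Figure D4:**
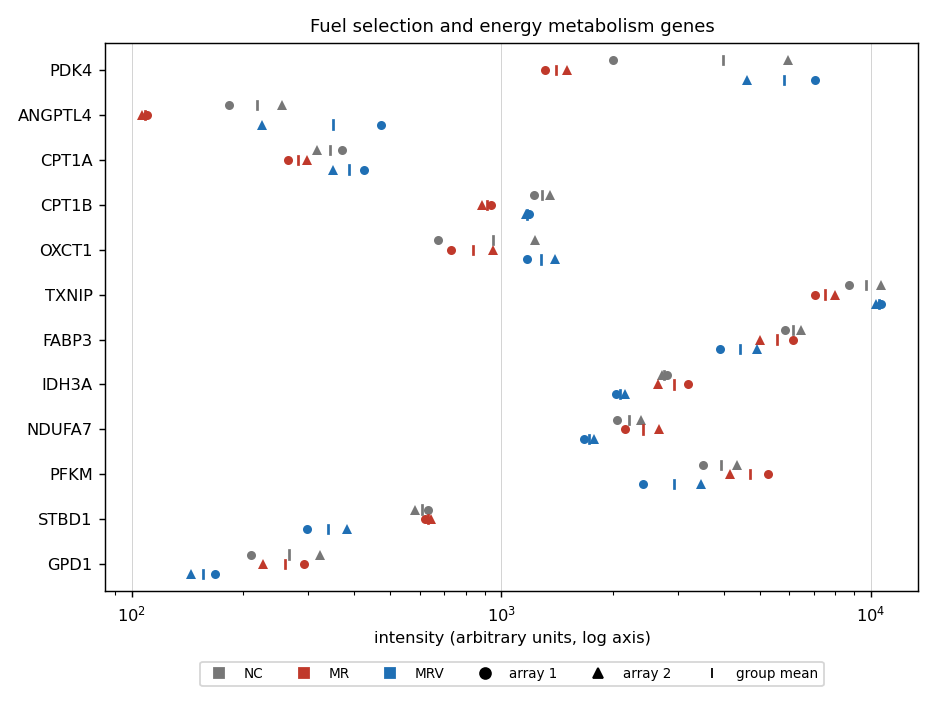
Intensity (horizontal log axis, arbitrary units) of 12 genes of fuel choice and energy metabolism on the 6 arrays. The genes were picked from their lists, which also hold genes that overlapped or had the other sign. Circles and triangles are arrays 1 and 2 of a group and short bars the group means; PDK4, ANGPTL4, CPT1A, CPT1B, OXCT1 and TXNIP read higher and FABP3, IDH3A, NDUFA7, PFKM, STBD1 and GPD1 lower in MRV than in MR, without overlap.

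Redox genes read both higher and lower. Of 37 antioxidant genes and selenoproteins, 16 read lower and 8 higher without overlap, and the median of -0.05 turned to 0.01 after quantile normalization. SELENOW, a small selenoprotein abundant in muscle, read 2149.7 and 1718 in MR, 972 and 999.9 in MRV and 1744 and 1684 in NC (log2 difference -0.95, SE 0.14, limma adjusted p = 0.317). GLRX, glutaredoxin, which reduces glutathione-protein disulfides, read 248 and 253 in MR, 128 and 160.4 in MRV and 269.8 and 232 in NC (log2 difference -0.74, SE 0.14, limma adjusted p = 0.437). Both were lowest in the treated atria. Thioredoxin reductase TXNRD1 was lower by -0.51, or -0.25 with an actin ratio term, and its other probe sets differed by -0.32 and 0.15. The inhibitor of thioredoxin, TXNIP, was higher, at 7043 and 8001 in MR, 10668 and 10292 in MRV and 8740.2 and 10674 in NC (log2 difference 0.48, SE 0.14, limma adjusted p = 0.585), and by 0.23 after allowing for the actin ratio. The secreted peroxidase GPX3 read 3712 and 3075 in MR against 4758 and 5096 in MRV. Of the 4 NADPH oxidase genes tested, 1 was lower and 1 higher without overlap.

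Autophagy and lysosome genes read lower for 15 of 30 members without overlap and higher for 2, with a median of -0.16. MAP1LC3A, which coats the autophagosome membrane, read 2013 and 1655 in MR, 1130.2 and 1271 in MRV and 1659.5 and 1508 in NC (log2 difference -0.60, SE 0.14, limma adjusted p = 0.51). WIPI1, which marks the forming autophagosome, read 453 and 493 in MR against 309.7 and 303 in MRV (log2 difference -0.60, SE 0.10, limma adjusted p = 0.386), but its other probe set differed by -0.04. NPC1, the lysosomal cholesterol exporter, read 297 and 340.0 in MR against 227 and 245 in MRV. LAMP2, a lysosomal membrane protein, was higher, at 1444 and 1604 in MR against 1951 and 2206 in MRV (log2 difference 0.44, SE 0.12, limma adjusted p = 0.569), and its other probe sets were higher by 0.22 and 0.65.

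Chaperones did not share a direction. Over 36 heat shock and folding genes, 12 were lower and 8 higher without overlap, and the median was 0.01. The largest lower differences were in small heat shock proteins of muscle: HSPB6 read 1379 and 945 in MR against 790.2 and 724 in MRV (log2 difference -0.58, SE 0.19, limma adjusted p = 0.626), and HSPB3 read 1683 and 1824 against 1209 and 1266 (log2 difference -0.50, SE 0.11, limma adjusted p = 0.498). Another HSPB6 probe set differed by only -0.16. HSPB7, which protects the sarcomere, read 3533 and 2823 in MR, 2082 and 2365 in MRV and 2189.7 and 2079.5 in NC, and its difference of -0.51 was -0.22 after allowing for the actin ratio. CRYAB, the alpha-B crystallin of the Z-disc, was lower by -0.27, and its other probe set by -1.64. Members of 1 family went both ways without overlap. The small heat shock protein HSPB8 was higher by 0.09, the cytosolic HSP90AB1 was higher by 0.16 while HSP90B1 of the endoplasmic reticulum was lower by -0.10, and of the chaperonin subunits CCT2 and CCT7 were higher by 0.18 and 0.16 and CCT8 lower by -0.14.

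Matrix genes, like all genes (28.7% lower and 15% higher), read lower without overlap more often than higher, with no common direction among the collagens. Of 22 collagen and fibrous matrix genes, 9 were lower (40.9%) and 3 higher (13.6%) without overlap. Their median of -0.14 turned to 0.03 with the 28S control, 0.15 adjusted for the actin ratio and 0.02 without MRV1. It was -0.04 without MR2 and -0.26 without MR1 or MRV2. THBS2, thrombospondin 2, read 602 and 632 in MR against 351 and 378 in MRV, and asporin (ASPN), a proteoglycan that binds TGF-beta, read 557 and 549.5 against 249 and 439. Their differences of -0.74 and -0.71 were -0.28 and -0.03 with an actin ratio term. COL1A2, a chain of the main fibrillar collagen, overlapped between the groups, at 230.4 and 189 in MR against 197 and 247 in MRV. COL5A1 was higher through MRV1, at 1444 and 575 in MRV against 436 and 539 in MR, and its difference of 0.89 was 0.20 with an actin ratio term. The tissue inhibitor of metalloproteinases TIMP1 read 423 and 447 in MR, 316 and 336 in MRV and 321 and 282 in NC (log2 difference -0.40, SE 0.11, limma adjusted p = 0.583), with MR above the other arrays, while TIMP3 was higher by 0.35. Of the 13 matrix proteases and inhibitors, 3 were lower (23.1%, under the 28.7% of all genes) and 1 higher (7.69%) without overlap.

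TGF-beta signalling and fibroblast activation genes read lower without overlap for 4 of 15 members (26.7%, under the 28.7% of all genes) and higher for 0. Their median of -0.20 was -0.05 without MR2 and -0.09 without MRV1. POSTN, periostin, a protein of activated fibroblasts and valves, read 1676 and 1409.6 in MR, 462 and 1300.5 in MRV and 1932 and 2258 in NC, and its difference of -0.97 rested mainly on MRV1 and was -0.11 after allowing for the actin ratio. The activin subunit gene INHBA read 262 and 274 in MR, 213 and 217 in MRV and 221 and 222 in NC (log2 difference -0.29, SE 0.10, limma adjusted p = 0.626). TGFB1 itself overlapped, at 149 and 191 in MR against 178 and 182 in MRV. Of 12 fibroblast markers, 3 were lower and 2 higher without overlap, and their summed intensity was 22900 and 26820 in MR and 25420 and 24070 in MRV. TCF21, a fibroblast transcription factor, was higher, at 139 and 149 in MR against 202 and 249 in MRV.

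Complement genes read lower without overlap for 5 of 12 members and higher for 0, with a median of -0.16 that was -0.08 with the 28S control and -0.41 adjusted for the actin ratio. Without MR2 it was -0.07, and without MR1, MRV1 and MRV2 it was -0.33, -0.35 and -0.39. C4A read 194 and 114 in MR, 51.0 and 59.8 in MRV and 116 and 79.7 in NC (log2 difference -1.21, SE 0.27, limma adjusted p = 0.5), with a log2 difference of -0.57 when the actin ratio was a covariate. C3, the central component, read 719 and 1325 in MR, 505 and 577 in MRV and 814 and 588 in NC, and the proteases C1R and C1S were lower by -0.55 and -0.53, the latter by -0.17 with the 28S control. Among cytokines and chemokines, 4 of 18 were lower and 3 higher without overlap. CCL19, a chemokine that guides T cells, read 85.2 and 87.5 in MR against 56.9 and 46.2 in MRV, and the interferon-induced CXCL9 read 93.6 and 61.4 against 127 and 134. The interferon list had 2 of 21 genes lower and 1 higher without overlap and a median of -0.05.

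Markers of immune cells were few and dim. Of 21 listed macrophage and monocyte markers, 16 had a probe set under their symbol and 9 were tested, with 2 lower and 0 higher without overlap. Their median of 0.09 turned to -0.09 without MR1 and -0.19 without MRV2, and it was 0.29 and 0.40 with the 28S control and the actin ratio. Their sum was 1048 and 1464 in MR and 1026 and 1525 in MRV, so it differed more within each group than between them. The scavenger receptor CD163 read 128 and 347 in MR against 121 and 324 in MRV. Of 22 listed T and NK cell markers, 14 had a probe set under their symbol and 2 of these were bright enough to test. CD8A read 66.3 and 48.4 in MR against 78.8 and 74.4 in MRV. In antigen presentation, 1 of 18 genes was lower and 3 higher without overlap. B2M, the light chain of class I molecules, was higher, at 4384 and 5975 in MR against 6814 and 9738 in MRV, but it read 2157 on NC1 and its sign turned with either RNA control as a covariate, to -0.27 and -0.23, and to -0.15 with the mean of its probe sets.

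Contractile genes of smooth muscle read lower in treated atria for 6 of 11 markers without overlap and higher for 1, with a median of -0.18 that was -0.06 with an actin ratio term and -0.12 without MRV1. CNN1, calponin, read 902 and 806 in MR, 489.5 and 527 in MRV and 976 and 892 in NC (log2 difference -0.73, SE 0.12, limma adjusted p = 0.386). TAGLN (transgelin) read 966 and 942 in MR against 663 and 770.5 in MRV, a difference of -0.41 that was -0.15 adjusted for the actin ratio, and CALD1 (caldesmon), which regulates the smooth muscle thin filament, read 2177 and 2713 against 1883 and 1797. Another CALD1 probe set differed by 0.12. ACTA2, smooth muscle actin, overlapped, at 2300.0 and 2018 in MR against 2058 and 2311 in MRV, and smoothelin (SMTN) was higher by 0.23. The summed intensity of the 11 markers was 24350 and 23240 in MR and 20070 and 20510 in MRV. MCAM, an adhesion protein of pericytes and smooth muscle, read 249.9 and 293 in MR, 139 and 154 in MRV and 236 and 179.9 in NC (log2 difference -0.82, SE 0.16, limma adjusted p = 0.439), and its other probe set was lower by -0.89.

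Endothelial markers read lower without overlap for 5 of 14 and higher for 0, with a median of -0.04. ERG, an endothelial transcription factor, read 212 and 222 in MR, 178 and 174 in MRV and 211 and 218 in NC (log2 difference -0.28, SE 0.10, limma adjusted p = 0.654). The junction proteins PECAM1 and CDH5 overlapped between the groups, with log2 differences of -0.05 and -0.13. The sum of the endothelial markers, 4786 and 5190 in MR and 4374 and 4929 in MRV, overlapped too. Adipocyte markers had a median of -0.20, with 3 of 11 lower and 1 higher without overlap, and that median turned to 0.03 with the 28S control and 0.10 adjusted for the actin ratio, and was -0.12 without MRV1 and 0 without MRV2.

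The nerve and glia markers were the list with the lowest median among those with at least 9 tested genes, -0.68, with 8 of 11 lower and 1 higher without overlap. The neuronal genes were dim, and the NC arrays differed widely from each other. SNAP25, a protein of synaptic vesicle release, read 54.8 and 113 in MR, 16.8 and 17.8 in MRV and 428 and 39.3 in NC. STMN2, which regulates microtubules in axons, read 49.2 and 73.1 in MR, 9.3 and 10 in MRV and 331 and 20.9 in NC. Array NC1 stood above all others in both, and also in NEFL and GAP43. SNAP25, STMN2 and GAP43 passed the intensity filter of 61.4 only through NC1, which is not part of the comparison. With an actin ratio term the differences of SNAP25 and STMN2 shrank from -1.52 and -1.57 to -0.48 and -0.23, and those of NEFL and GAP43 from -1.08 and -0.68 to -0.08 and -0.02.

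Of the glial markers, GFAP and S100B read lower without overlap. GFAP read 153 and 87.2 in MR against 68.3 and 61.1 in MRV, S100B read 612 and 601 against 391 and 519, and their differences of -0.71 and -0.42 were -0.35 and -0.10 with an actin ratio term. Another GFAP probe set had the other sign, at 0.17. The Schwann cell factor SOX10 overlapped, with a log2 difference of -0.09. MBP, myelin basic protein, was higher by 0.21. The list shares UCHL1 and CRYAB with the stretch list. Its summed intensity was 15800 and 14730 in MR against 11630 and 11620 in MRV. Most of that sum was CRYAB, the crystallin of the Z-disc, at 12201 and 11341.5 in MR against 10098.5 and 9406 in MRV. The sum therefore says little about nerve or glia. The list median was -0.25 with the 28S control and -0.10 after allowing for the actin ratio, and between -0.77 and -0.40 without an array, the latter without MR1. It was -0.34 with a stricter intensity filter and -0.40 with an offset of 64.

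**Figure D5:**
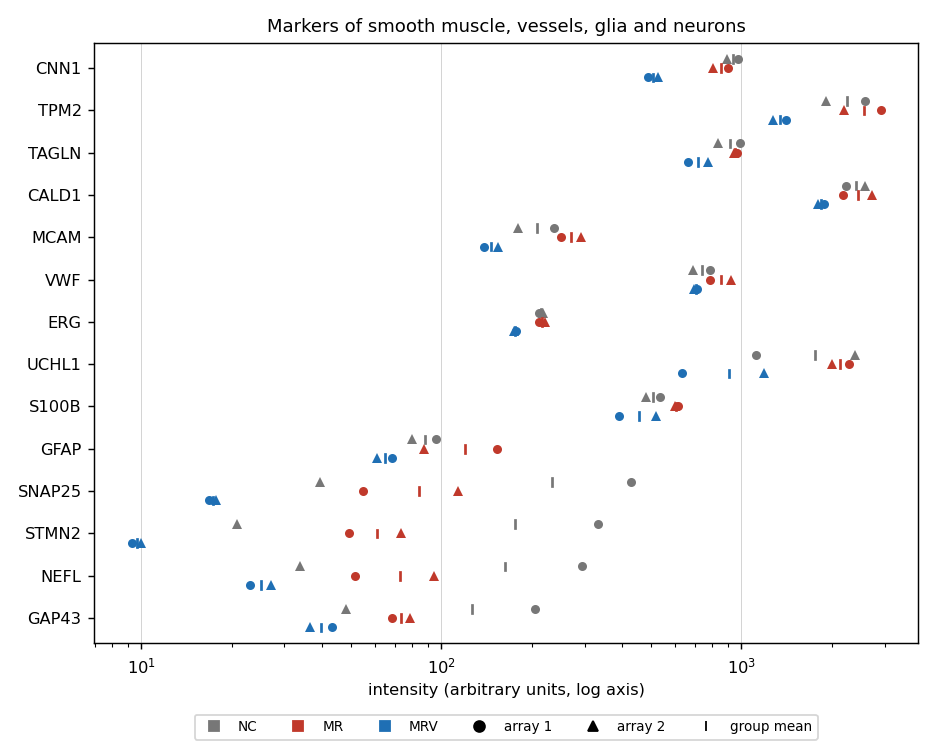
Intensity (horizontal log axis, arbitrary units) of 14 marker genes of smooth muscle, vessels, glia and neurons on the 6 arrays. The genes were picked from their lists, and members that overlapped or read higher, such as ACTA2, SOX10, SMTN and MBP, are not shown. Circles and triangles are arrays 1 and 2 of a group and short bars the group means; the MRV arrays lie below the MR arrays in all 14 genes, while SNAP25, STMN2, NEFL and GAP43 are highest on array 1 of NC.

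Housekeeping lists lay near the median of all genes. Of 56 cytosolic ribosomal proteins, 9 were lower and 5 higher without overlap, with a median of -0.01. The proteasome and ubiquitin list had 13 of 46 genes lower and 5 higher without overlap and a median of -0.05. Its largest difference was that of UCHL1, and that of PSMC3, an ATPase of the proteasome, was 0.20. In the apoptosis list, 5 of 13 were lower and 3 higher without overlap. ENDOG, a mitochondrial nuclease, read 462 and 400.1 in MR against 256 and 308 in MRV (log2 difference -0.59, SE 0.14, limma adjusted p = 0.522), and CFLAR, an inhibitor of caspase 8, was lower by -0.56. Another CFLAR probe set differed by only -0.01. Of 6 clock genes, 2 were lower and 2 higher without overlap. ARNTL, the core activator of the clock, read 76.7 and 88.7 in MR, 121 and 202 in MRV and 101 and 150.1 in NC (log2 difference 0.81, SE 0.27, limma adjusted p = 0.629). NFIL3, a clock-controlled repressor, read 135 and 200.3 in MR against 319.5 and 247 in MRV, a difference of 0.72 that was 0.34 with an actin ratio term, while the clock repressors CRY2 and BHLHE40 were lower by -0.47 and -0.61, CRY2 by -0.09 after allowing for the actin ratio. The time of day at which tissue was taken is not stated in the labels used here.

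The remaining lists held few tested genes or small differences. Of 18 growth factor genes, 6 were lower and 3 higher without overlap, among them IGFBP6, which binds insulin-like growth factors, at 488 and 452 in MR against 326 and 363 in MRV, with a difference of -0.43 that was -0.12 adjusted for the actin ratio. The cell cycle list had 2 of 11 genes lower and 2 higher without overlap, and the cyclin-dependent kinase inhibitor CDKN1B was higher by 0.35. Of the endocardium and valve markers, POSTN and CDH11 were lower and TMEM100 overlapped, with a difference of -0.40 that was -0.06 with the 28S control, and CDH11, a cadherin of valve cells and fibroblasts, read 141 and 199.9 in MR against 117 and 64.3 in MRV. PDPN, a lymphatic membrane protein, read 310.0 and 366 in MR, 230.2 and 263 in MRV and 246 and 229.6 in NC (log2 difference -0.43, SE 0.13, limma adjusted p = 0.61). VSNL1, a neuronal calcium sensor also used as a marker of the sinus node, read 415 and 657 in MR against 128 and 389 in MRV, and its sign turned adjusted for the actin ratio, to 0.24. In blood cells, the haem synthesis gene ALAS2 was lower by -0.50 and the platelet glycoprotein GP9 higher by 0.20.

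Set against the NC arrays, the genes at least 2-fold apart between MRV and MR fell into different positions. Of the 38 lower genes, 25 had both MRV arrays below both NC arrays, 19 had both MR arrays above both NC arrays, and 9 had both. Of the 18 higher genes, 7 had both MRV arrays above both NC arrays, 9 had both MR arrays below both NC arrays, and 2 had both. The genes were chosen on the MR and MRV values, so these counts describe where the NC arrays lay and test nothing. F3 is among the genes with both positions, since its MR readings were above and its MRV readings below those of NC. In CNN1 and STBD1, with smaller differences, the MR and NC arrays overlapped and the MRV arrays lay below both groups. In NPPB and EDNRA the MRV and NC arrays overlapped, and the MR arrays lay above both groups for NPPB and below both for EDNRA.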

How the data were processed

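The authors deposited 1 table of intensity values on a linear scale, 1 column per array, for 24123 probe sets. Per the submitters' processing notes MAS5 and RMA were used, with no versions; the sources used here do not say which of them made the table. Per the deposited values, intensities ran from 4.8 to 27167 and array medians from 90.2 to 93.4, so the arrays had been scaled to each other. The number of arrays, 2 per group, limits the precision, and p-values measure the spread between 6 animals with 1 array each.

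After 124 control probe sets were left out, the 14400 probe sets with a mean intensity of at least 61.4 (the 40th percentile) were tested on log2(intensity + 16) with limma 3.58.1 (lmFit, eBayes, R 4.3.3). The mean was taken over all 6 arrays, so a dim gene could pass only through the arrays where it was brightest. All 6 arrays entered the fit, with group means as terms (3 residual and 2.78 prior degrees of freedom) and Benjamini-Hochberg adjustment over all tested probe sets. The fit was also run on simulated data with independent noise, in which 200 of 14400 probe sets were changed by a log2 of 1 or 2. At an adjusted p under 0.05 it called 190.9 probe sets per draw, of which 14.1 were false. The noise was drawn with spreads that limma had already shrunk towards each other, so it was more even than the residual spreads of the data. That simulation held no RNA quality shift shared across probe sets, so it does not cover such a shift. It therefore does not show what share of real differences the fit would call in these atria.

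Symbols came from the platform annotation: 10069 probe sets had 1 symbol, 198 several and 13732 none, and 9961 of those with 1 symbol were found by Entrez ID in the RefSeq gene table, with 0 symbols changed. A gene is its brightest tested probe set, which gave 5408 genes. Genes are named where they are among the 15 lower or 15 higher at least 2-fold apart without overlap with the smallest p, among the 4 strongest of a list, or in a fixed set of heart genes. The 56 lists, the comparison and its members were chosen with earlier results of these data known. ACTA2, ADM, CACNA2D1, CASQ2, CCT2, CCT7, CCT8, CD163, CDH5, EDNRB, EGR1, FBXO32, FKBP1B, FOS, GAP43, GAPDH, GPX3, HEY2, HSP90AB1, HSP90B1, HSPB8, IER5, JUN, MBP, MYL4, NEB, NEFL, NR4A2, PECAM1, PGAM2, PPARGC1A, RYR2, SMTN, SNAP25, SOX10, STMN2 and XIRP2 fall outside that rule and were named after their values had been seen. Promoter sequences were not analysed here. The 18 alternatives tried vary the offset, filter, scaling, arrays, block, RNA control covariates, variance prior and probe sets per gene.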

Additional observations from a re-analysis of the deposited data

How the results depend on the processing

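With 2 arrays against 2, small differences could not be told from animal variation, and with raw scanner files not used here, background correction and summarization could not be varied. The 0 called probe sets stayed 0 in 15 of the 17 alternatives at probe set level; with the 28S control as a covariate 1 was called, and with the replicate number as a block 2, none of them with a gene symbol. The replicate numbers were not treated as pairs in the main fit, since the labels do not say that they mark a shared batch. Same-numbered arrays deviated together with r = 0.02 between MR and MRV, 0.34 between NC and MR and 0.20 between NC and MRV, over probe sets. The 1048 probe sets at an unadjusted p under 0.05 became 1639 with no filter (more probe sets tested), 423 with the actin ratio as a covariate and 599 to 1496 without an array. The 79 probe sets at least 2-fold higher became 42 with an offset of 64, 49 with the actin ratio and 61 to 171 without an array. The 80 lower ones became 44 with that offset, which shrinks dim differences, and 77 to 125 without an array. Without either NC array the fit is that of the 4 MR and MRV arrays alone, since a lone array adds no spread.

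Of the 208 named genes, 170 had no overlap between MRV and MR, and 10 of these turned their sign under at least 1 alternative. With the actin ratio as a covariate these were LOC100523870 (-0.11), PLIN2 (-0.03), IGFBP2 (0.03), VSNL1 (0.24), GNB2 (-0.14), STARD10 (0.04) and B2M (-0.23). With the 28S control they were STARD10 (0.00), B2M (-0.27), PDGFRB (0.01) and TAPBP (0.02). B2M also turned with the mean of its probe sets (-0.15), and NPPA after quantile normalization (-0.02). Of the 38 named genes whose arrays overlapped, 27 turned under at least 1 alternative, 14 of them with the actin ratio and 5 with the 28S control. Those with a difference of at least 0.3 in size were OAS1 (-0.40, to 0.13 with the actin ratio and 0.04 without MR1), KCNJ8 (-0.35, to 0.02 with the 28S control and 0.09 without MRV2) and SLA-8 (-0.32, to 0.08 without MR2). Why the other values differed was not tested. In 152 of 862 values over 48 lists the median moved by more than 1 SD of the replicate arrays. Scaling moved the share of higher genes among those without overlap from 34.3% to 27.0% with median centring and 42.3% with quantile normalization.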
